A study of Mus musculus with 15 samples.

Results

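A set of 10 genes that regulate blood stem cells and early progenitors was followed through erythroid progenitors taken from mouse fetal liver at stage E12.5, in wildtype and Rpl5 mutant embryos. The genes are Kit, Flt3, Cd34, Runx1, Erg, Meis1, Mecom, Hlf, Myb and Mycn, picked by name as regulators of this stage, and they are 10 of 55487 genes in the deposited tables. Of the 10 genes, 9 had enough counts to be tested in each comparison, and Mecom did not. The labels divide 15 libraries into 5 groups of 3, all of strain 129S6/SvEvTac. Group 1 of mice holds 3 wildtype and 3 mutant libraries made from polyA RNA. Group 2 of mice, sequenced from total RNA, adds a kind of sample called low-yield mutant and holds 3 libraries each of wildtype, mutant and low-yield mutant. The sample sheet deposited with group 2 spells the genotype of both kinds of mutant as Rpl5plusSkax23Jus, the sheet of group 1 gives no genotype, and the labels do not define low-yield. Because the kind of RNA differs, no level of group 1 was set against one of group 2.

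Blood stem cells and multipotent progenitors carry the receptor Kit and, in part, the receptor Flt3 and the surface protein Cd34, and they depend on transcription factors such as Runx1, Erg, Meis1, Mecom and Hlf. Early erythroid progenitors still need Kit signalling and Myb, and both are turned down as the cells mature towards red cells. Most stem cell factors are already low or silent once a progenitor is committed to the erythroid lineage.

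Group 1 libraries held 48510828 to 58513669 counts each, and those of group 2 held 24954324 to 44827821. The mutated gene served as a check of the labels. Rpl5, a ribosomal protein gene whose product is part of the large subunit, lay at 656 to 744 CPM (the count of a gene relative to library size, TMM-scaled) in wildtype and 520 to 570 in mutant libraries of group 1. In group 2 it lay at 303 to 374 CPM in wildtype, 232 to 248 in mutant and 219 to 278 in low-yield mutant libraries. Each mutant library was therefore below each wildtype library of its group. The labels give a genotype and do not state a level of Rpl5. The 10 markers that define the erythroid lineage were all detected, and their sums were lower in the mutants. They lay at 3410 to 3700 CPM in wildtype and 2410 to 2640 in mutant libraries of group 1, and at 3850 to 4890 in wildtype, 3050 to 3330 in mutant and 2830 to 3330 in low-yield mutant libraries of group 2. Of the 10 markers 9, 3 and 6 were called lower in these comparisons, by the test described below, beside 6.78%, 2.95% and 5.86% of all genes, and their part in the results on the 10 genes was not tested. The labels do not say whether replicates came from separate embryos or litters, so p-values measure only the spread between these libraries.

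The start-site regions shown are those of the members that passed a test, Kit and Runx1 in each comparison with wildtype, and Meis1 in the joint fit of both groups of mice. Meis1 was not called within a single group of mice in the same kind of fit, and its joint call was lost without any of 4 single libraries. Each line holds the 250 bases before a RefSeq start site in GRCm38.p6, written 5′ to 3′ on the strand of the gene. Kit (chr5:75574737-75574986, forward strand) is shown at the first of its 2 listed start sites. Runx1 (reverse strand) has a distal start site (chr16:92826075-92826324) and a proximal one (chr16:92697330-92697579), and the gene counts do not separate transcripts from the 2 sites. Meis1 (chr11:19018970-19019219, reverse strand) has 1 listed site. The following 4 motifs were searched on both strands: GATAA (reverse TTATC, the core bound by GATA factors), TGTGGT (reverse ACCACA, the core bound by Runx factors), CCGGAA (reverse TTCCGG, an ETS factor core) and GGGCGG (reverse CCGCCC, a GC box). Capitals mark the matches.
Kit: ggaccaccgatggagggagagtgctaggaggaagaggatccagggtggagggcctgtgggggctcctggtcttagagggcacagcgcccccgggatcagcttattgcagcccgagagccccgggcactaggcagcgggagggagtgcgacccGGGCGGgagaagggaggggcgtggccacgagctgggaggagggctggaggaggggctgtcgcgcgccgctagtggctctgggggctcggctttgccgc
Runx1 distal: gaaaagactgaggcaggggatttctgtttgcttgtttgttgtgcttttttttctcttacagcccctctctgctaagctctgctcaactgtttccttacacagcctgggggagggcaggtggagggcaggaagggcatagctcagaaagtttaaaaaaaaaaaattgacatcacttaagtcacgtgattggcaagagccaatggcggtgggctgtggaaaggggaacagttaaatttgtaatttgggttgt
Runx1 proximal: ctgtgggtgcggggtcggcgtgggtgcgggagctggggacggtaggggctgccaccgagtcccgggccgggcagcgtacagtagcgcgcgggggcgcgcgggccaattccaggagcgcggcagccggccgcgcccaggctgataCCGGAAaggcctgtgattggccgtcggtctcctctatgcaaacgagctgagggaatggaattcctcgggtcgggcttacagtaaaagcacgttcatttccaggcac
Meis1: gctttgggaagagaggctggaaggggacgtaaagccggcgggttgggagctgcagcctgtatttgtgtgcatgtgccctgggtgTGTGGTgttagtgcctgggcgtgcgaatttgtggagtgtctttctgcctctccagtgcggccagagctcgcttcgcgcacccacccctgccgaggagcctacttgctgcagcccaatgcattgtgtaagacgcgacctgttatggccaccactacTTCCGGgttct

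The Kit window held 1 GC box, at position -98 from the start site. The distal Runx1 window held none of the 4 motifs, and the proximal one held 1 ETS core at position -106. The Meis1 window held a Runx core at position -166 and an ETS core, on the reverse strand, at position -11. None of the 4 windows held GATAA. Among 32851 start-site windows of the same length, 22.6% held GATAA, 14% the Runx core, 12% the ETS core and 32.7% the GC box. These matches describe the letters only, and say nothing of whether a factor was bound.

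The levels of the 10 genes were compared with each other per length, as CPM per kb of annotated exon. In all 5 groups Myb was highest, Kit next and Runx1 the third, and the ranges of these 3 genes did not touch. In wildtype libraries of group 1 Myb was at 42.4 ± 6.48 CPM per kb (SD, n = 3), Kit at 18.1 ± 1.23 and Runx1 at 3.61 ± 0.0764. In wildtype libraries of group 2 they were at 35.9 ± 5.85, 20.1 ± 2.64 and 6.14 ± 0.388 CPM per kb. The other genes were all far lower. In group 1 wildtype libraries Cd34 was at 0.502 ± 0.397, Erg at 0.29 ± 0.247, Meis1 at 0.258 ± 0.0285, Flt3 at 0.183 ± 0.162, Mycn at 0.0775 ± 0.0418 and Hlf at 0.0538 ± 0.0157 CPM per kb. Each of these 6 overlapped its neighbour in the order, so their order is not resolved. In wildtype libraries of group 2 Meis1, at 0.274 ± 0.00886 CPM per kb, stood apart from Cd34 at 0.101 ± 0.0993, and the genes below Cd34 again overlapped their neighbours.

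**Figure D1:**
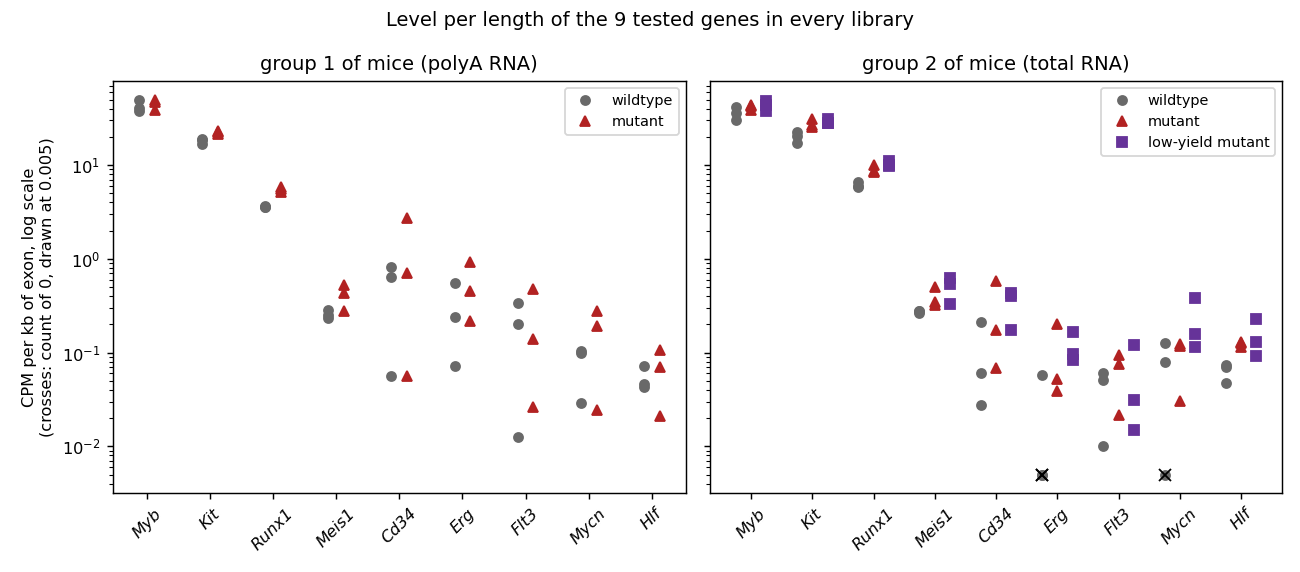
Level per length, in CPM per kb of exon on a log axis, of the 9 tested genes (horizontal axis) in every library, with group 1 of mice on the left and group 2 on the right. Each point is 1 library, marked by genotype, and crosses mark counts of 0. Myb, Kit and Runx1 form 3 separate steps in every group, while the 6 genes to their right largely overlap, Meis1 and Cd34 in group 2 wildtype libraries excepted.

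In group 1 of mice, 2 of the 9 tested genes were called, Kit and Runx1, both higher in the mutant. A gene is called here when its adjusted p is under 0.05 (edgeR's quasi-likelihood test with Benjamini-Hochberg adjustment over all genes tested), and 5.79% of all tested genes were called higher and 6.78% lower in this comparison. Kit and Runx1 were also the 2 called genes in the group 2 mutant, where 3.32% of all genes were called higher and 2.95% lower, and in the low-yield mutant, where the shares were 6.68% and 5.86%. None of the 9 was called lower in any comparison. Every mutant library lay above every wildtype library for 2 of the 9 genes in group 1 (15% of all tested genes), for 4 in the group 2 mutant (Kit, Runx1, Meis1 and Hlf, 11.5% of all) and for 5 in the low-yield mutant (these 4 and Erg, 15.3% of all). The fitted difference was above 0 for 9 of 9 genes in each of the 3 comparisons with wildtype, with a median log2 fold change of 0.61, 0.54 and 0.83, beside 0.0075, -0.0096 and -0.0035 over all tested genes. The mutant and the low-yield mutant of group 2 were compared with the same 3 wildtype libraries, so these 2 comparisons are not independent. The genes were chosen with earlier results of these data known, and the counts are a description of them. As these are bulk samples, a change in the number of cells of a type and a change in RNA per cell cannot be told apart.

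**Figure D2:**
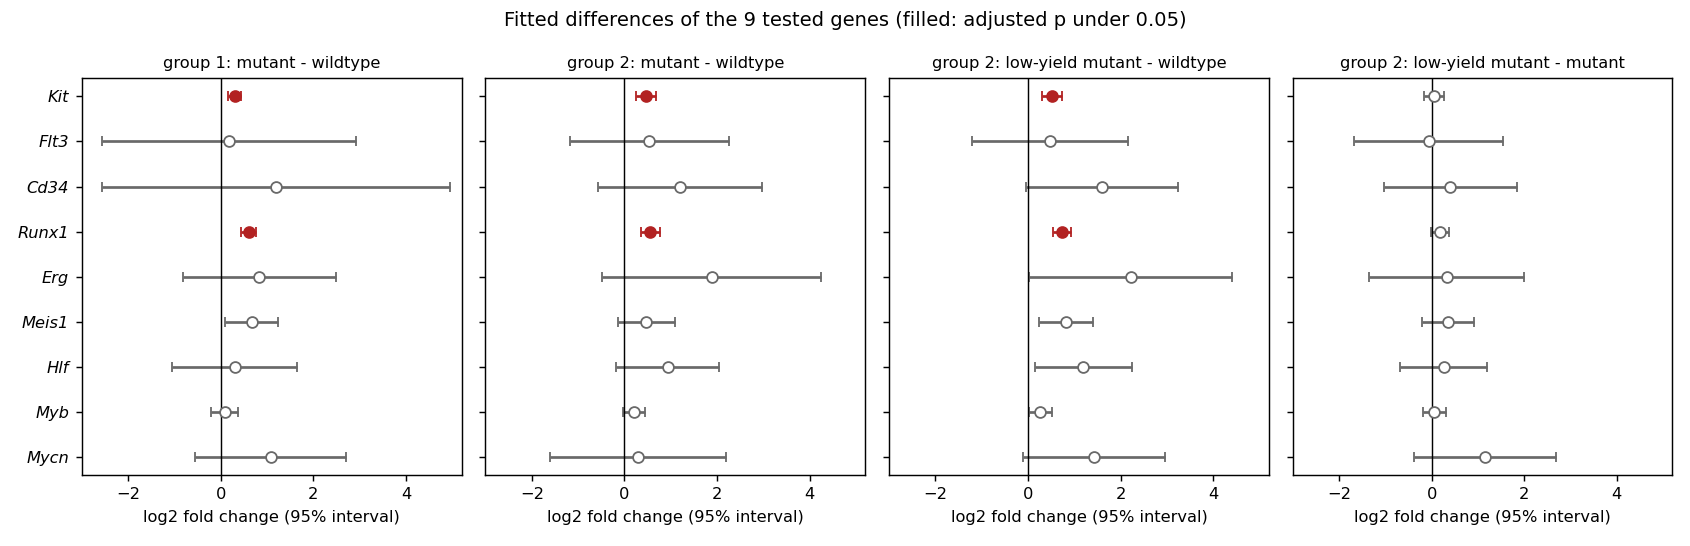
Fitted log2 fold changes with 95% intervals (horizontal axis) of the 9 tested genes in the 3 comparisons with wildtype and in low-yield mutant against mutant. Filled red points are called at an adjusted p under 0.05, which holds for Kit and Runx1 in the first 3 panels and for no gene in the last.

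Among the receptors and surface proteins, Kit was the abundant one. Kit (ENSMUSG00000005672, chromosome 5, 75574916 to 75656722 of GRCm38) encodes the receptor of stem cell factor, which keeps stem cells, early erythroid progenitors and mast cells alive and dividing. In group 1 its level was 149, 163 and 171 CPM in wildtype replicates 1, 2 and 3, and 191, 204 and 198 CPM in the mutant replicates. Group 2 wildtype replicates gave 202, 180 and 155 CPM, the mutant ones 240, 276 and 226 CPM and the low-yield ones 247, 275 and 248 CPM. Each mutant library of either kind lay above every wildtype library of its group of mice.

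Kit was 1.23-fold higher in the group 1 mutant (log2 fold change 0.30, SE 0.065, adjusted p 0.0126). It was 1.38-fold higher in the group 2 mutant (log2 0.47, SE 0.10, adjusted p 0.0136) and 1.44-fold higher in the low-yield mutant (log2 0.52, SE 0.10, adjusted p 0.00382). The first 2 of these calls rested on single libraries. In group 1 the adjusted p was 0.0528 when mutant replicate 3 was left out, 0.0511 when it was wildtype replicate 1 and 0.0541 when it was wildtype replicate 2. In the group 2 mutant it was 0.0602 and 0.0643 without wildtype replicate 2 or 3, and at the threshold, 0.05, when mutant replicate 2 was left out. In these fits the log2 fold change was 0.26 to 0.30 in group 1 and 0.37 to 0.47 in the group 2 mutant. Over all fits without 1 library it was 0.26 to 0.34 and 0.37 to 0.57. The call for the low-yield mutant was kept in all 19 alternatives tried, with an adjusted p of at most 0.025.

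Flt3 (ENSMUSG00000042817, chromosome 5, 147330741 to 147400489), the receptor of Flt3 ligand on multipotent and lymphoid-primed progenitors, was low and uneven. The group 1 values were 0.0773, 1.25 and 2.07 CPM for wildtype and 0.162, 2.94 and 0.87 CPM for the mutants, in the order of replicates 1, 2 and 3. The wildtype replicates of group 2 had 0.0633, 0.318 and 0.379 CPM, its mutants 0.134, 0.579 and 0.465 CPM and its low-yield mutants 0.192, 0.0913 and 0.743 CPM. The genotypes overlapped fully, and the lowest values rest on 2 to 8 counts. The fitted log2 fold changes were 0.18 (SE 1.09), 0.54 (SE 0.81) and 0.48 (SE 0.79), none past the threshold, and no direction can be given for this gene at this depth.

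Cd34 (ENSMUSG00000016494, chromosome 1, 194938819 to 194961279), a sialomucin on the surface of stem cells, progenitors and endothelium, varied widely among replicates. In group 1 it was at 0.406, 5.94 and 4.63 CPM in wildtype replicates and 0.405, 19.7 and 5.16 CPM in mutant replicates, in the order 1, 2 and 3. For group 2 the values were 0.443, 0.202 and 1.56 CPM (wildtype), 0.504, 4.21 and 1.27 CPM (mutant) and 3.17, 1.28 and 2.9 CPM (low-yield mutant). The highest library was 14.6 times the lowest among group 1 wildtype libraries and 48.7 times the lowest among group 1 mutants, and both replicates numbered 1 were the low ones.

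None of the Cd34 differences was called. Group 1 gave a log2 fold change of 1.19 (SE 1.38, adjusted p 0.65), the group 2 mutant one of 1.20 (SE 0.80, adjusted p 0.464) and the low-yield mutant one of 1.60 (SE 0.74, adjusted p 0.199). Without mutant replicate 2 the group 1 value was -0.40, and without any other single library it stayed above 0, up to 1.75. In group 2 the mutant value was 0.20 without mutant replicate 2 and 2.54 without wildtype replicate 3, and the low-yield value was 1.18 without wildtype replicate 2 and 2.94 without wildtype replicate 3. An antisense gene, Gm16897, overlaps exons of Cd34 and reached 44 counts in a wildtype library of group 2, where Cd34 itself had 7 to 70 counts. The use of strand is not given in the sources used here, so reads from the 2 genes cannot be told apart there.

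Among the stem cell transcription factors, Runx1 gave the most even difference. Runx1 (ENSMUSG00000022952, chromosome 16, 92601466 to 92826149) encodes the DNA-binding subunit of core binding factor, needed for the first blood stem cells to form and kept at a lower level in erythroid cells. Group 1 wildtype replicates had 43.2, 42.6 and 44.4 CPM against 70.0, 66.6 and 61.4 CPM for the mutants. Group 2 wildtype replicates stood at 72.1, 79.1 and 70.2 CPM, the mutants at 104, 121 and 102 CPM and the low-yield mutants at 117, 133 and 120 CPM. The genotypes were clearly apart in all 3 comparisons, and the wildtype libraries of group 1 differed by a factor of only 1.04.

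Runx1 was 1.52-fold higher in the group 1 mutant (log2 fold change 0.61, SE 0.073, adjusted p 4.97e-04). It was 1.48-fold higher in the group 2 mutant (log2 0.56, SE 0.092, adjusted p 0.00265) and 1.67-fold higher in the low-yield mutant (log2 0.74, SE 0.092, adjusted p 1.93e-04). The calls were kept in all 15, 19 and 19 alternatives, leaving out any 1 library included, with adjusted p values of at most 0.00701, 0.0147 and 0.00157. Kit and Runx1 were 2 of the 299 genes, of 13370 tested in both groups of mice (2.24%), that were called higher in all 3 comparisons with wildtype. For both genes every mutant library lay above every wildtype library of its group of mice, as for 751 of the 13370 genes (5.62%).

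Erg (ENSMUSG00000040732, chromosome 16, 95359169 to 95586593), an ETS factor that maintains stem cells and is also active in endothelium and megakaryocytes, was near the detection limit in group 2. Its wildtype libraries there had 0, 0 and 9 counts, its mutant libraries 4, 18 and 7 counts and its low-yield mutant libraries 18, 11 and 12 counts. The 2 counts of 0 allow a level of up to 0.0949 and 0.0867 CPM. In group 1 Erg was at 0.251, 0.827 and 1.94 CPM in wildtype and 0.749, 3.22 and 1.58 CPM in mutant libraries, which overlapped.

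The low-yield mutant libraries, at 0.288 to 0.576 CPM, were all above the highest wildtype library of group 2, at 0.2 CPM, but Erg was not called there (log2 fold change 2.21, SE 1.04, adjusted p 0.183). The fitted size rests on the 9 counts of wildtype replicate 3, and without that library no fold can be given in group 2, since both other wildtype libraries are at 0. It was not called in the group 2 mutant (log2 1.89, SE 1.13, adjusted p 0.377) or in group 1 (log2 0.84, SE 0.70, adjusted p 0.499) either. Without mutant replicate 2 the group 2 mutant value was 0.96. In group 1 it was 0.17 without mutant replicate 2 and 1.77 without wildtype replicate 3.

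Meis1 (ENSMUSG00000020160, chromosome 11, 18879817 to 19018985), a homeodomain factor that works with Pbx and Hox proteins in stem cells and megakaryocyte progenitors, had intermediate values. The group 1 values were 2.44, 2.67 and 3.03 CPM for wildtype and 2.92, 5.52 and 4.55 CPM for the mutants. The wildtype replicates of group 2 had 2.78, 2.92 and 2.96 CPM, its mutants 3.66, 5.29 and 3.36 CPM and its low-yield mutants 5.66, 6.51 and 3.47 CPM. Only mutant replicate 1 of group 1 fell inside the wildtype range, and all 6 mutant libraries of group 2 lay above the 3 wildtype ones.

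Meis1 was not called in any comparison of a single group of mice. The group 1 mutant differed from wildtype by 0.67 on the log2 scale (SE 0.26, adjusted p 0.12), the group 2 mutant by 0.47 (SE 0.29, adjusted p 0.393) and the low-yield mutant by 0.82 (SE 0.27, adjusted p 0.0605). In group 1 libraries with the same replicate number deviated together (correlations 0.591, 0.254 and 0.258), but so did wildtype replicate 3 and mutant replicate 2 (0.344). With the replicate number as a block Meis1 was called in group 1 (log2 0.66, adjusted p 0.0419), as it was without mutant replicate 1 (log2 0.89, adjusted p 0.0376). In the low-yield mutant it was called without low-yield replicate 3 (log2 1.07, adjusted p 0.0115). Counts of the overlapping genes Gm37818 and Gm16140 stayed at 14 or fewer in each library, against 88 or more for Meis1.

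Hlf (ENSMUSG00000003949, chromosome 11, 90336536 to 90390895), a bZIP factor that marks immature stem cells, was at 0.29, 0.481 and 0.308 CPM in wildtype and 0.709, 0.141 and 0.474 CPM in mutant libraries of group 1, which overlapped. For group 2 the values were 0.474, 0.318 and 0.49 CPM (wildtype), 0.873, 0.849 and 0.775 CPM (mutant) and 0.608, 1.52 and 0.863 CPM (low-yield mutant). All 6 mutant libraries there were above the wildtype ones, but neither difference was called (log2 0.93, SE 0.52, adjusted p 0.346, and log2 1.19, SE 0.49, adjusted p 0.128). Each library held 7 to 50 counts of this gene.

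Mecom (ENSMUSG00000027684, chromosome 3, 29951296 to 30548008), which encodes the zinc finger factor Evi1 of long-term stem cells, did not reach the floor of 3 counts in any library. It had 0 counts in 12 of the 15 libraries, 1 and 2 counts in mutant replicates 2 and 3 of group 1 and 1 count in low-yield mutant replicate 1. A count of 0 allows a level of up to 0.0514 to 0.116 CPM, depending on the depth of the library. No fold change is given for it.

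**Figure D3:**
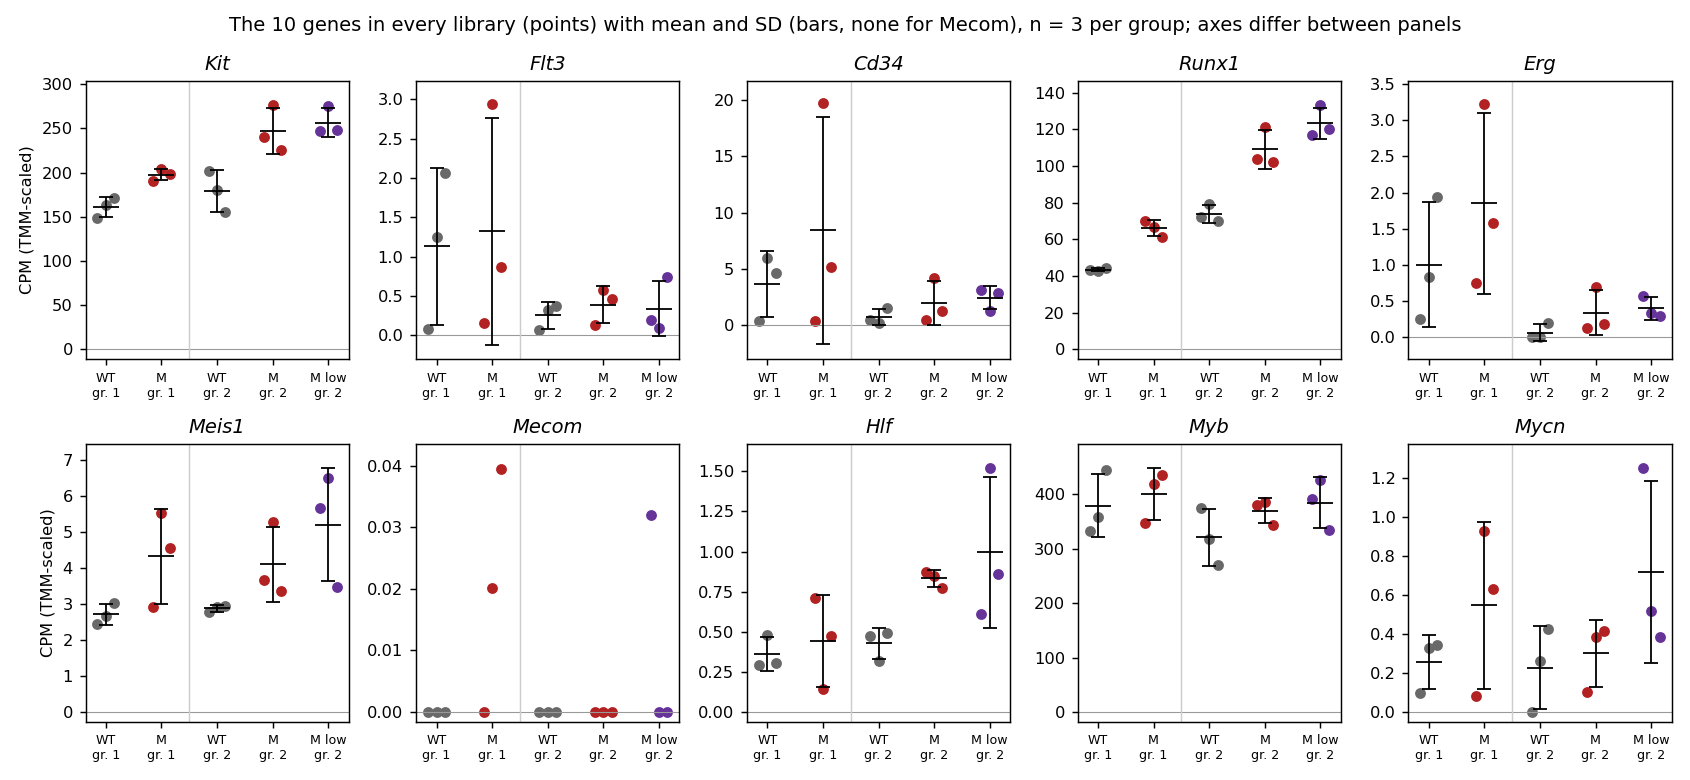
TMM-scaled CPM (vertical axes, which differ between panels) of the 10 genes in each of the 5 groups (horizontal axes), with 1 point per library and bars for the mean and SD of 3 libraries. Kit and Runx1 separate the mutants from wildtype in both groups of mice, while Flt3, Cd34, Erg and Mycn spread widely within groups.

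Among the factors that drive proliferation, Myb was the most abundant of all 10 genes. Myb (ENSMUSG00000019982, chromosome 10, 21124935 to 21160984) encodes a transcription factor needed for definitive blood formation, which keeps erythroid progenitors dividing. Group 1 wildtype replicates had 333, 359 and 444 CPM against 347, 419 and 436 CPM for the mutants. Group 2 wildtype replicates stood at 374, 318 and 270 CPM, the mutants at 380, 386 and 343 CPM and the low-yield mutants at 392, 427 and 335 CPM. The genotypes overlapped in all 3 comparisons, in contrast to Kit and Runx1 in the same libraries.

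Myb was not called in any comparison. The log2 fold changes were 0.08 for group 1 (95% interval -0.21 to 0.38, adjusted p 0.729), 0.20 for the group 2 mutant (interval -0.04 to 0.45, adjusted p 0.346) and 0.26 for its low-yield counterpart (interval 0.02 to 0.51, adjusted p 0.154). Without wildtype replicate 1 of group 2, the low-yield difference was called (log2 0.39, adjusted p 0.0194). The group 1 interval includes the Kit estimate of 0.30, and the upper bounds in group 2 lie just under the Kit estimates of 0.47 and 0.52, but the difference between the 2 genes was not tested. The antisense gene Gm26577 overlaps exons of Myb and held at most 196 counts, against 9996 or more for Myb.

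Mycn (ENSMUSG00000037169, chromosome 12, 12936093 to 12941914), a Myc family factor of stem and early progenitor cells, was at 0.0967, 0.327 and 0.343 CPM in wildtype and 0.081, 0.927 and 0.632 CPM in mutant libraries of group 1. Group 2 wildtype replicates held 0, 9 and 19 counts, the mutants 3, 10 and 16 and the low-yield mutants 39, 17 and 16. All groups overlapped. The log2 fold changes were 1.07 (SE 0.74), 0.29 (SE 0.90) and 1.43 (SE 0.72), none past the threshold (adjusted p 0.389, 0.9 and 0.226). Leaving out 1 library gave 0.47 (without mutant replicate 2) to 1.58 (without mutant replicate 1) in group 1. It gave -0.19 (without wildtype replicate 1) to 1.15 (without wildtype replicate 3) in the group 2 mutant. For low-yield mutants the range was 0.815 (without their replicate 1) to 2.3 (without wildtype replicate 3).

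Low-yield and other mutants of group 2 could not be told apart by these genes. None of the 9 was called, at an adjusted p under 0.05 (0.0% of all tested genes) or at an unadjusted p under 0.05 (480 of 15024 genes, 3.19%). DESeq2 called none of the 9 here, and 6 of all genes. The difference for Runx1 had a 95% interval of -0.02 to 0.37 on the log2 scale, and that for Kit one of -0.16 to 0.27. For Cd34 the interval ran from -1.03 to 1.84 and for Mycn from -0.39 to 2.68, so that several-fold differences in these 2 genes would not have been seen. For no gene did the 2 kinds of mutant separate completely, compared with 4.07% of all genes with the low-yield libraries above the mutant ones.

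In a joint fit over both groups of mice, blocked by group, 3 of the 9 genes were called, Kit, Runx1 and Meis1, all higher in the mutant. Of all tested genes 9.8% were called higher and 9.8% lower in this fit of 12 libraries. Kit was 1.3-fold higher (log2 fold change 0.38, SE 0.066, adjusted p 3.83e-04) and Runx1 1.5-fold higher (log2 0.58, SE 0.061, adjusted p 1.64e-06). Both calls were kept in all 21 alternatives. Meis1 was 1.5-fold higher as well (log2 0.58, SE 0.18, adjusted p 0.0234), and 5 of its 6 mutant libraries lay above the wildtype libraries of their group of mice.

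The Meis1 call was lost when any of 4 single libraries of group 1 was left out, while the difference kept its direction and most of its size. Leaving out mutant replicate 2 gave a log2 fold change of 0.47 (adjusted p 0.0756), mutant replicate 3 one of 0.55 (0.0656), wildtype replicate 1 one of 0.54 (0.0658) and wildtype replicate 2 one of 0.56 (0.0516). Erg was called in this fit without wildtype replicate 3 of group 1 (log2 1.77, adjusted p 0.0256) and not with it (log2 0.92, adjusted p 0.204). Whether the genotype difference itself changed from group 1 to group 2 was tested as an interaction, and none of the 9 genes passed (0.0188% of all tested genes did, and none of the 9 had an unadjusted p under 0.05, beside 2.14% of all). The interaction for Runx1 was -0.03 (95% interval -0.29 to 0.24) and that for Kit 0.19 (-0.09 to 0.46).

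Of the 9 genes, 6 had their highest level of group 1 in a single library, mutant replicate 2. These were Kit, Cd34, Meis1, Mycn, Erg and Flt3. Wildtype replicate 1 had the lowest level of group 1 for 5 genes, Kit, Meis1, Myb, Erg and Flt3, and mutant replicate 1 that of Cd34 and Mycn. In group 2, wildtype libraries held the lowest level of each of the 9 genes. Markers of other cell types moved with some of these libraries in group 1, where mutant replicate 2 was also the lowest library for Hlf. The summed level of 14 granulocyte and monocyte markers was 111, 822 and 790 CPM in wildtype replicates 1, 2 and 3 of group 1, and 278, 1540 and 1080 CPM in the mutant replicates. The replicates numbered 1 of group 1, low in Cd34 and Flt3, were thus also low in these markers, and mutant replicate 2 was high in both. This did not hold among the wildtype libraries of group 2. Replicate 1 was highest there in these markers (39.1 CPM) but lowest in Flt3 (0.0633 CPM). Replicate 3 was lowest in these markers (18.3 CPM) but highest in Cd34 (1.56 CPM). Among mutant and among low-yield libraries, the highest in these markers (242 and 406 CPM) was also highest in Cd34 (4.21 and 3.17 CPM).

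In group 2 the same 14 markers summed to 18.3 to 39.1 CPM in wildtype, 147 to 242 in mutant and 188 to 406 in low-yield mutant libraries, all of them being detected in at least 1 library. Of the 13 tested there, 10 were called higher for the mutant and 13 for the low-yield mutant (3.32% and 6.68% of all genes), while 0 of 14 were called in group 1 (5.79% of all genes were called higher). With the replicate number as a block, 7 of the 14 were called higher in group 1 and none lower. The shares of all genes were 10.5% and 9.92%. Libraries of group 1 pair by number under the rule given below. A different-number pair, wildtype replicate 3 and mutant replicate 2, would pass that rule too. The sum was higher in the mutant of each of the 3 same-numbered pairs. Their part in the differences of the 10 genes was not tested.

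Kit is also a defining gene of mast cells. The 10 mast cell and basophil markers summed to 1.3 to 10.7 CPM in wildtype and 6.16 to 29.8 CPM in mutant libraries of group 1, with Fcer1a, Tpsab1, Tpsb2 and Mcpt4 under 3 counts in every library. In group 2 they summed to 0.318 to 1.45 CPM in wildtype, 2.71 to 5.02 in mutant and 4.48 to 8.92 in low-yield mutant libraries. Most of each sum was 1 gene, Hdc, the enzyme that makes histamine. It averaged 6.17 CPM (SD 4.55, n = 3) in wildtype and 17.6 (SD 10.8, n = 3) in mutant libraries of group 1. In group 2 its means were 0.707 CPM (SD 0.451) in wildtype, 3.75 (SD 1.09) in mutant and 6.06 (SD 2.34) in low-yield mutant libraries, with n = 3 each. The mast cell protease gene Cpa3 averaged 0.144, 0.224 and 0.249 CPM there, and 0.548 CPM (SD 0.398, n = 3) in wildtype and 1.76 (SD 1.13, n = 3) in mutant libraries of group 1. Of the 10 markers only 1 had enough counts to be tested in group 2, where it was called higher in both kinds of mutant (3.32% and 6.68% of all genes), and 3 were tested in group 1, where none was called. With the replicate block 2 of these 3 were called higher, Hdc (log2 1.57, adjusted p 5.85e-07) and Cpa3 (log2 1.69, adjusted p 0.00318), beside 10.5% of all genes. The sums therefore do not describe the whole list. The 12 endothelial markers, a list relevant to Cd34 and Erg, went from 2.44 to 5.61 CPM in wildtype and 4.64 to 11.9 CPM in mutant libraries of group 1. In group 2 they lay at 1.36 to 2.23 CPM in wildtype, 4.62 to 7.3 in mutant and 8.41 to 11.6 in low-yield mutant libraries. Pecam1, an adhesion molecule of endothelium and some blood cells, averaged 2.11 CPM (SD 1.07, n = 3) in wildtype and 6.13 (SD 2.46, n = 3) in mutant libraries of group 1. In group 2 its means were 0.924 CPM (SD 0.309) in wildtype, 3.26 (SD 0.586) in mutant and 5.62 (SD 1.48) in low-yield mutant libraries, with n = 3 each. The sums hold genes with opposite differences here too. The defining gene Cdh5, at or under 0.474 CPM throughout, averaged 0.269 CPM (SD 0.17, n = 3) in wildtype and 0.0729 (SD 0.0798, n = 3) in mutant libraries of group 1, and 0.277, 0.068 and 0.18 CPM in wildtype, mutant and low-yield mutant libraries of group 2. Of 5 endothelial markers tested in group 2, 1 was called higher for the mutant and 4 for low-yield libraries (3.32% and 6.68% of all genes), and of 4 tested in group 1 none was, or 1, Pecam1, with the replicate block (log2 1.55, adjusted p 1.75e-05).

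The 11 megakaryocyte markers, relevant to Meis1 and Erg, overlapped between wildtype (54 to 72.6 CPM) and mutant (50.9 to 66) in group 1, and between wildtype (56.3 to 70) and mutant (56.8 to 59.3) in group 2. In low-yield mutant libraries they stood higher, at 74.1 to 78.5 CPM. These sums hold genes with opposite differences. In group 1 Tubb1, a platelet tubulin, averaged 24.1 CPM (SD 1.04, n = 3) in wildtype and 11 (SD 2.12, n = 3) in mutant libraries, and Itga2b, a platelet integrin, 12.8 (SD 3.43, n = 3) and 21.9 (SD 4.81, n = 3). Of 10 tested in group 1, 1 was called higher and 2 lower, or 4 and 2 with the replicate block. Of 9 tested in group 2, 1 was called higher in the mutant, and 5 higher and 1 lower in the low-yield mutant, beside the shares of all genes given above.

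As a sum, the 14 late erythroid markers moved the other way from Kit and Runx1, though not each of them did. They summed to 4700 to 6470 CPM in wildtype and 2050 to 2370 in mutant libraries of group 1, with 11 of 14 called lower (6.78% of all genes). In group 2 they summed to 5860 to 12900 CPM in wildtype, 3180 to 4090 in mutant and 2530 to 3860 in low-yield mutant libraries, with 6 and 8 of 14 called lower (2.95% and 5.86% of all genes). No late erythroid marker was called higher, but Xpo7 was not lower. It averaged 76 CPM (SD 9.7, n = 3) in wildtype and 78.2 (SD 3.54, n = 3) in mutant libraries of group 1. In group 2 its means were 85.4 CPM (SD 9.01) in wildtype, 92 (SD 4.48) in mutant and 97.3 (SD 5.24) in low-yield mutant libraries, with n = 3 each. Within the wildtype libraries the order was not the same in both groups. Wildtype replicate 3 was the highest library in late erythroid markers in each group of mice. In group 2 it was the lowest library in Kit, Runx1 and Myb, while in group 1 it was the highest wildtype library in Kit (171 CPM) and Runx1 (44.4 CPM) and the highest of all 6 in Myb (444 CPM). The part of these markers in the differences was not tested, and the lists were chosen with earlier results known. Summed macrophage and lymphoid markers stayed at or under 12.2 CPM in every library, and 2 of 4 tested lymphoid markers were called lower in group 1 (6.78% of all genes) and 1 of 2 in the low-yield mutant (5.86%). Of 4 macrophage markers tested in group 1 none was called, or 1, Vcam1, with the replicate block (log2 1.07, adjusted p 0.039, beside 10.5% of all genes called higher). The 10 hepatocyte markers summed to 35 to 64.6 CPM in wildtype and 7.61 to 23.4 in mutant libraries of group 1, which did not overlap, with 2 of 10 called lower (6.78% of all genes). With the replicate block 2 were also called lower (9.92% of all genes), but Alb lost its call (adjusted p 0.111) and Ahsg gained one (adjusted p 0.0278). In group 2 the hepatocyte sums overlapped, at 11.4 to 80.9 CPM in wildtype, 11.1 to 51.1 in mutant and 45.1 to 51.8 in low-yield mutant libraries. The 10 mesenchymal and stellate markers summed to 3.23 to 7.57 CPM in wildtype and 5.57 to 7.75 in mutant libraries of group 1, with 1 of 3 tested called higher (5.79% of all genes), or 2 of 3 with the replicate block (10.5%). In group 2 they summed to 6.74 to 11.4 CPM in wildtype, 7.46 to 10.1 in mutant and 12.1 to 14.9 in low-yield mutant libraries, with none of 4 tested called, and the low-yield libraries lay above the wildtype ones. The part of these markers in the differences was not tested either.

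**Figure D4:**
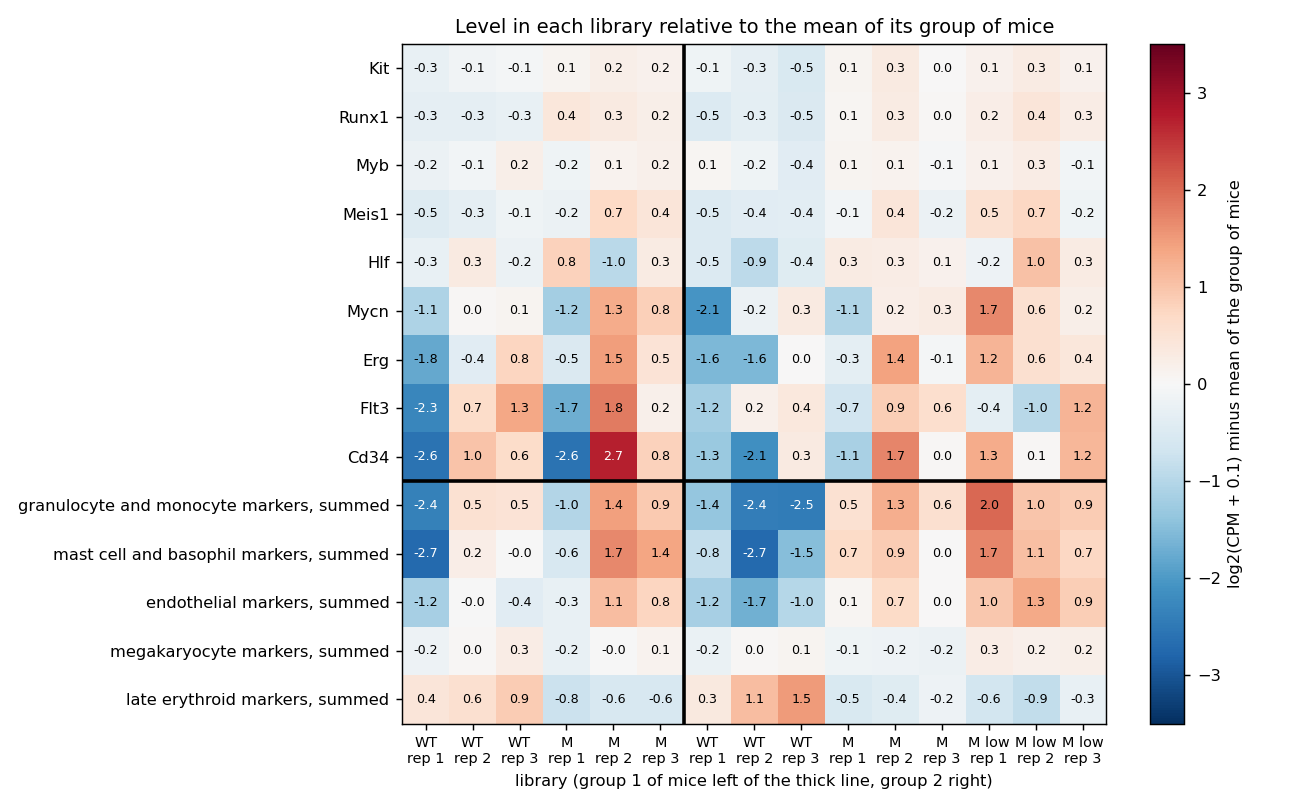
Level of each tested gene and of the summed markers of 5 cell types (rows) in every library (columns), as log2(CPM + 0.1) minus the mean over the libraries of the same group of mice, with red for above and blue for below that mean. Cd34 and Flt3 vary along with the granulocyte and monocyte markers in group 1, where both replicates numbered 1 are low, while Runx1 separates wildtype from mutant libraries.

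The genes whose profile over the 15 libraries lay nearest to each member were found by the root mean square (RMS) difference of log2(CPM + 0.1), centred within each group of mice. For Kit these were Dapk1 (RMS difference 0.0645), Tgfbr3 (0.0856) and Map4 (0.0921), beside a median of 0.267 over 9016 candidate genes. For Runx1 they were Lypla1 (0.106), Utp20 (0.112) and Fam169a (0.115), beside a median of 0.35, and for Myb they were Tgfb1 (0.0798), Por (0.0822) and Cbfa2t3 (0.0865), beside 0.225. For Meis1 they were Pcgf2 (0.172), Ptpre (0.197) and Elf4 (0.199), beside 0.446. For Cd34 they were Coro1a (0.785), Olfm4 (0.805) and Mpo (0.923), beside 1.57, the last being the myeloperoxidase of granulocytes and a gene of the granulocyte list. For Flt3 they were the embryonic globins Hba-x (0.711) and Hbb-y (0.725) and the factor Cebpd (0.858), beside 1.15. For Erg they were Sptan1 (0.421), Igfbp4 (0.466) and Limd2 (0.493), beside 1.03. For Mycn they were Dlk1 (0.614), Rin3 (0.624) and Celf2 (0.649), beside 0.98, and for Hlf Gm9531 (0.365), Ddx3x (0.375) and Lin7c (0.38), beside 0.559. Erg, Mycn and Hlf held 0 to 160 counts per library, Flt3 2 to 146 and Cd34 7 to 978, so their likenesses rest in part on few counts. These libraries differ in genotype and cell content, so likeness here is a description of the same 15 libraries.

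Genes that work with Kit were called in part. Of 27 genes of Kit signalling, 26 were tested, and 6 were called higher and 2 lower in the group 1 mutant, 3 higher and 1 lower in the group 2 mutant, and 5 higher and 2 lower in the low-yield mutant. With the replicate block 9 were called higher and 2 lower in group 1 (10.5% and 9.92% of all genes). Without it, in the same order, 5.79%, 3.32% and 6.68% of all tested genes were called higher and 6.78%, 2.95% and 5.86% lower. The list medians were 0.20, 0.14 and 0.23 on the log2 scale, beside 0.0075, -0.0096 and -0.0035 over all tested genes. Sh2b2, an adaptor that binds the activated receptor, was at 3.05 to 3.84 CPM in wildtype and 6.5 to 8.1 in mutant libraries of group 1, and at 3.72 to 5.53, 10.9 to 14.9 and 9.97 to 14.4 CPM in wildtype, mutant and low-yield mutant libraries of group 2. Its log2 fold change was 1.07 (SE 0.19, adjusted p 0.00377), 1.42 (SE 0.21, adjusted p 0.00127) and 1.40 (SE 0.21, adjusted p 5.62e-04). The Src family kinase Lyn was called higher in all 3 comparisons (log2 0.68, 0.50 and 0.61).

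Fyn, another Src family kinase, was called higher in group 1 (log2 0.55, adjusted p 5.33e-04) and over both groups (log2 0.46, adjusted p 6.66e-05), with 0.36 and 0.30 in group 2 (adjusted p 0.0772 and 0.0985, not called). Cbl, a ubiquitin ligase that limits the receptor, was called higher in the group 1 mutant and the low-yield one (log2 0.36 and 0.37). The phospholipase Plcg2 was called in both comparisons of group 2 (log2 0.86 and 1.16), and in group 1 with the replicate block (log2 0.63, adjusted p 4.56e-04), and Src in the low-yield mutant (log2 2.13). The genes called lower were Ptpn11, a phosphatase that carries the signal to Ras, in all 3 comparisons, and the adaptor Shc1 in the group 1 mutant and the low-yield one.

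The second list held 34 transcription factors that share partners or targets with the 10 genes. In group 1, 30 were tested, 2 were called higher and 2 lower, shares near those of all genes (5.79% and 6.78%). With the replicate block 8 were called higher and 2 lower (10.5% and 9.92% of all genes). In group 2, 28 were tested, with 3 higher and 1 lower in the mutant (3.32% and 2.95% of all genes), and 8 higher and 2 lower in the low-yield mutant (6.68% and 5.86%). The list medians were 0.186, 0.0597 and 0.0893 on the log2 scale in the 3 comparisons with wildtype. Fli1, the ETS factor nearest to Erg, was called higher in the group 2 mutant (log2 1.52, SE 0.26, adjusted p 0.00377), as well as in the low-yield mutant (log2 2.16, SE 0.25, adjusted p 1.03e-04). In group 1 it ranged from 2.36 to 7.52 CPM in wildtype and from 5.89 to 16.1 in mutant libraries and was not called (log2 1.12, SE 0.59, adjusted p 0.311). Gata2, the GATA factor of stem cells and mast cells, had log2 fold changes of 1.37 and 1.82 in group 2, both called (adjusted p 0.0163 and 0.00107), and of 1.55 in group 1, not called (adjusted p 0.258). With the replicate block both were called in group 1, Fli1 (log2 1.15, adjusted p 7.96e-06) and Gata2 (log2 1.56, adjusted p 2.44e-07).

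Ikzf2 was called in both comparisons of group 2 (log2 1.88 and 2.37), and in group 1 with the replicate block (log2 1.14, adjusted p 6.64e-04). Cbfb, the non-DNA-binding subunit that pairs with Runx1, was called higher in the low-yield mutant (log2 1.13, SE 0.21, adjusted p 0.00405) and over both groups (log2 0.78, SE 0.12, adjusted p 1.96e-04). In the single comparisons of group 1 and of the group 2 mutant its log2 fold changes were 0.83 and 0.73 (adjusted p 0.0545 and 0.0702), and with the replicate block it was called in group 1 (log2 0.84, adjusted p 1.18e-06). Mybl2, a Myb family factor of dividing cells, was called lower in all 3 comparisons (log2 -0.45, -0.33 and -0.31), beside the Myb values given above, which were not called.

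The third list held 30 other genes of stem and progenitor cells, and no gene of it was called lower. In group 1, 25 were tested and 4 called higher (5.79% of all genes), or 7 with the replicate block (10.5%), and in group 2, 24 were tested with 3 called higher for the mutant (3.32% of all) and 7 for the low-yield mutant (6.68% of all). Hmga2, a chromatin protein of fetal stem cells, was at 6.42 to 15.5 CPM in wildtype and 29.6 to 38.4 in mutant libraries of group 1. In group 2 it was at 5.32 to 8.1, 19.8 to 24 and 23 to 36.8 CPM in wildtype, mutant and low-yield mutant libraries. Its log2 fold change was 1.48 (SE 0.32, adjusted p 0.0445), 1.71 (SE 0.19, adjusted p 2.10e-04) and 2.17 (SE 0.19, adjusted p 1.36e-05).

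Sox4, a factor of early progenitors, was called higher in all 3 comparisons (log2 0.83, 0.92 and 0.83). Bmi1, a Polycomb protein of self-renewal, was called in group 1 and in the group 2 mutant (log2 0.41 and 0.44), and Lin28b, an RNA-binding protein of fetal blood cells, in the group 1 mutant and the low-yield one (log2 0.33 and 0.31). The cytokine receptor chain Csf2rb was called in the low-yield mutant (log2 1.83). No gene of the 3 lists was called between low-yield and other mutants. The list medians of the third list were 0.27, 0.44 and 0.32 on the log2 scale in the 3 comparisons with wildtype, beside 0.0075, -0.0096 and -0.0035 over all tested genes. The lists were drawn up with earlier results of these data known, so their counts describe these genes and do not test a theme.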

How the data were processed

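RNA-seq of 15 libraries was used. Per the submitters' processing notes, reads were handled with cutadapt 2.3, FastQC 0.11.8, STAR 2.7.8a, RSEM 1.3.3 and MultiQC 1.7 on GRCm38. Which annotation release was counted, and whether by strand, is not given in the sources used here. The authors deposited expected counts per gene, already whole numbers, which rounding left unchanged. Reporter rows, 5 and 4 in the 2 tables with 1 and 4 counts in all, were left out. Names, coordinates and exon lengths came from GENCODE M21, which holds 55227 of 55487 genes (99.5%).

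Genes were filtered with filterByExpr, scaled by TMM and tested with edgeR 4.0.16 in R 4.3.3, by a robust quasi-likelihood fit and two-sided F tests, with Benjamini-Hochberg adjustment over all genes tested. Group 1 was fitted on its 6 libraries, group 2 on its 9, and both groups on 12 libraries, blocked by group of mice. The biological coefficient of variation was 22.4% and 19.9%. The mode of the quasi-likelihood fit had not been fixed: the package default (legacy mode) was run first, and the newer mode was then set to match the earlier processing of these data. Legacy mode was kept as an alternative, chosen after seeing the data. The other alternatives were DESeq2 1.42.0, voom of limma 3.58.1 with quality weights, other scalings and filters, a fit without robust estimation, the replicate number as a block and leaving out each library. The fitting code was tested on simulated data.

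Whether replicate numbers pair libraries was checked on deviations from group means: the same-number correlations were 0.591, 0.254 and 0.258 in group 1, where the numbers pair by the rule that each exceeds 0.1, and -0.125 to 0.339 in group 2, where they do not. The rule does not weigh different-number pairs. In group 1 those ran from -0.502 to -0.012, except wildtype replicate 3 and mutant replicate 2 at 0.344, so the pairing is not settled. Named genes are the 10 members, up to 6 called genes with the smallest p of each of 3 lists, and the 3 genes most like each member (of genes with a mean of at least 5 CPM). Some genes of the lists are counted with them but not reported here by name. Other genes called from a list are given by name only, and named marker genes were chosen after their values were seen. The members and lists were chosen with earlier results of these data known. Start-site windows came from RefSeq, with all 10 members matched.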

Additional observations from a re-analysis of the deposited data

How the results depend on the processing

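Over 988 alternative values of the 9 tested genes, 930 kept their direction and side of the threshold, 10 lost a call, 12 gained one and 36 changed sign. In the 3 comparisons with wildtype and over both groups, the 10 lost calls were those of Kit and Meis1 given above, each without 1 library. The number of genes called ranged from 1 to 3 in group 1, from 1 to 2 in the group 2 mutant, from 2 to 3 in the low-yield mutant and from 2 to 4 over both groups when single libraries were left out, and it was 0 in all of these for low-yield mutant against mutant and for the interaction. In the low-yield mutant 4 genes were called with the replicate block, which adds Meis1 (adjusted p 0.0356) and Myb (0.0368), and 5 with voom, which adds Meis1 (0.0241), Myb (0.0174) and Erg (0.0226). DESeq2 called Meis1 there as well (0.0272). The replicate numbers of group 2 do not pair the libraries by the check used. Over both groups the block added Myb (adjusted p 0.0498). In group 1 the replicate block changed no call of the 9 genes but that of Meis1. It also changed calls of listed and marker genes, given above as counts and in part by name. Legacy mode called as many of the 9 genes as the main fit in each comparison, 2, 2, 2, 0, 3 and 0.

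Changes of sign concerned low or uncalled values, and their cause was not tested. Flt3 was at -0.40 with voom in the low-yield mutant, and the interaction of Cd34 at -0.012, -0.006 and -0.026 with RLE scaling, no low-count filter and upper-quartile scaling. When single libraries were left out, the ranges that crossed 0 were -0.40 to 1.75 for Cd34, -0.21 to 0.72 for Hlf and -1.16 to 0.99 for Flt3 in group 1, -0.19 to 1.15 for Mycn in the group 2 mutant, -0.92 to 0.92 for Flt3 in the low-yield mutant and -0.68 to 0.86 for Flt3 over both groups. Between low-yield and other mutants they were -0.005 to 0.141 for Kit, -0.033 to 1.406 for Cd34, -0.018 to 0.149 for Myb, -0.028 to 1.255 for Erg, -0.13 to 0.49 for Hlf and -1.46 to 0.37 for Flt3. For the interaction they were -0.98 to 1.59 for Cd34, -0.42 to 0.021 for Meis1, -0.007 to 0.233 for Myb, -1.30 to 0.068 for Mycn and -0.424 to 1.702 for Flt3.

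The number of all genes called moved by over 1.5 times in group 1 with the replicate block (2863, against 1766) and in group 2 with DESeq2 (1452, against 942) and voom (2000, and 3399 against 1884 in the low-yield mutant). Leaving out 1 library gave 753 to 1729 calls in group 1, 425 to 1323 in the group 2 mutant and 900 to 2395 in the low-yield mutant, 0 to 22 between low-yield and other mutants, where DESeq2 called 6 and voom 4, and 2 to 3 for the interaction, where DESeq2 called 13 and the replicate block 5. Depth limits Mecom, Flt3, Erg, Mycn and Hlf, which held at most 160 counts in any library.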
